A study of Mus musculus with 3 samples.

Results

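The glutathione peroxidases Gpx1, Gpx2, Gpx3 and Gpx4, the selenoproteins Selenop and Txnrd1, and the antioxidant enzymes Nqo1, Cat and Sod1 were followed through single-cell RNA sequencing of the mouse intestinal epithelium. These 9 of the 51912 genes in the deposited gene lists were chosen by name, with earlier results of the same libraries in view, and all 9 were found by symbol. The study asks what the transcription factor ARID3A does in intestinal progenitors. Of the 3 libraries analysed, 2 came from VillinCreERT2 Arid3a fl/fl mice (Arid3a cKO), in which tamoxifen activates a recombinase driven by the epithelial Villin promoter, and 1 from a VillinCreERT2 mouse without the floxed allele (WT). All 3 therefore carry the recombinase, and both genotypes received tamoxifen at 8 to 10 weeks of age and were harvested 1 month after the first injection. Crypts were dissociated and sorted for living Epcam-positive cells without CD45 or CD31, and transcripts were counted as unique molecular identifiers (UMIs). The labels do not say whether a library came from 1 animal or from several, so the spread between the cKO libraries may be technical. With 1 WT library there is no replicate of the control and no test, so the comparisons between genotypes below are descriptions of these libraries.

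Glutathione peroxidases reduce hydrogen peroxide and organic peroxides at the expense of glutathione. Those followed here carry selenocysteine, a selenium analogue of cysteine, in the active site. GPX1 is the ubiquitous cytosolic enzyme, GPX2 is the form typical of the gastrointestinal epithelium, GPX3 is secreted, and GPX4 reduces lipid peroxides in membranes and thereby restrains ferroptosis. SELENOP is a secreted protein that transports selenium, and TXNRD1 is the cytosolic thioredoxin reductase. Catalase (Cat), the copper and zinc superoxide dismutase (Sod1) and the quinone reductase Nqo1, a well-known target of the NRF2 transcription factor, contain no selenium.

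The selenocysteine codon separates these groups in the reference sequence. Selenocysteine is read from an in-frame TGA codon, which elsewhere ends translation, and 24 of the 21793 protein-coding genes in the lists that are annotated in GENCODE M21 (0.110%) have such a codon annotated. The principal coding transcripts of Gpx1, Gpx2, Gpx3, Gpx4 and Txnrd1 hold 1 in-frame TGA each, Selenop holds 10, and Nqo1, Cat and Sod1 hold 0. The windows below show the first selenocysteine codon of each selenoprotein, 5′ to 3′ on the coding strand, with the TGA in capitals and 18 bases on each side.
Gpx1: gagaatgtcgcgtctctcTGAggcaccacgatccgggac
Gpx2: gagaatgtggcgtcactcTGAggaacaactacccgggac
Gpx3: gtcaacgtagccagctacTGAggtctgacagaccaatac
Gpx4: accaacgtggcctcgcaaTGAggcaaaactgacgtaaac
Selenop: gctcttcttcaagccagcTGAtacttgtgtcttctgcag
Txnrd1: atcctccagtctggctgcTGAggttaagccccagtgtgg
The codon is number 47 of 201 in Gpx1 (chr9:108339451-108339453, plus strand, exon 1 of 2) and number 40 of 190 in Gpx2 (chr12:76795256-76795258, minus strand, exon 1 of 2). In Gpx3 (chr11:54907256-54907258, exon 2 of 5) and Gpx4 (chr10:80054737-80054739, exon 3 of 7) it is number 73. In Txnrd1 it is number 498 of 499, the last but one (chr10:82896037-82896039, exon 14 of 14), whereas in Selenop the first is number 59 (chr15:3274848-3274850, exon 2 of 5) and the last number 377 of 380. All of these positions are in coding exons of GRCm38. The windows of Gpx1 and Gpx2 share 33 of 39 bases, more than any other pair of peroxidases, for which 19 to 23 of 39 were identical.

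After removal of cells with fewer than 1000 genes or more than 15% mitochondrial UMIs, 5594 of 25554 barcodes remained, namely 2134 cells of Arid3a cKO 1, 1550 of Arid3a cKO 2 and 1910 of WT, at a median of 29895 to 35764 UMIs per cell. The mitochondrial limit alone was exceeded by 66.4 to 79.2% of barcodes. Clustering without the 9 genes and without 73 genes of related pathways gave 13 clusters, of which 11 could be named from markers. They held 866 ISC-like (intestinal stem cell), 905 transit-amplifying (TA)-like, 2282 enterocyte-like, 369 goblet-like, 80 Paneth-like, 176 enteroendocrine-like and 123 tuft-like cells. A cluster of 740 cells led by 1500035N22Rik, Ccl20 and Edn2 and one of 53 cells led by Ghrl, Gip and Acta1 stayed unnamed. Arid3a itself was sparse, with 42 and 52 UMIs in the cKO libraries and 161 in WT, or 0.592, 0.894 and 2.57 counts per 1000000 UMIs (CPM), a level 4.34 and 2.87 times as high in WT. Pairs of libraries shared 11 to 18 barcodes, of which 0 to 2 were among the kept cells.

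The cytosolic Gpx1 and the epithelial Gpx2 were most abundant in the proliferative compartment, while 5 of the other members were, among the named classes, highest in enterocyte-like cells. For Gpx1 the level in TA-like cells was 1328 and 1465 CPM in the cKO libraries and 1146 CPM in WT, a mean of 1313 ± 160 CPM (SD, n = 3 libraries). ISC-like cells followed at 1193 ± 80.5 CPM and enterocyte-like cells at 801 ± 96.2 CPM. The ranges of TA- and ISC-like cells overlapped, and both lay above that of enterocyte-like cells. Goblet-like (584 ± 31.2 CPM) and tuft-like cells (576 ± 193 CPM) did not separate from each other. In CPM, Gpx1 was lowest in Paneth-like cells, at 111 ± 16.5. Those cells had a median of 119501 to 177412 UMIs, against 29895 to 35764 over all kept cells. A low CPM there is a low share of many UMIs, so the rank in CPM need not be the rank in counts per cell. Paneth-like cells held 458, 282 and 308 Gpx1 UMIs in 34, 17 and 29 cells (Arid3a cKO 1, Arid3a cKO 2 and WT). Enteroendocrine-like cells held 219, 148 and 255 in 46, 43 and 87 cells, and TA-like cells 18593, 18530 and 15228 in 328, 259 and 318. The highest Gpx1 level of any cluster was outside the named classes, in the cluster led by 1500035N22Rik, Ccl20 and Edn2, with 2283 and 2638 CPM in the first and second cKO library and 2175 CPM in WT, the order kept from here on.

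Gpx2 (chr12:76792333-76795554) was highest in ISC-like cells, at 902, 1070 and 1102 CPM, with a mean of 1025 ± 108 CPM. TA-like cells held 902 ± 132 CPM, a range that overlapped with that of ISC-like cells. Tuft-like cells, chemosensory cells of the epithelium, came next at 627 ± 70.0 CPM, above every library of the goblet-like class (333 ± 57.9 CPM). The share of cells with a Gpx2 UMI did not follow this rank in Arid3a cKO 1 and WT. With each cell thinned to 8000 UMIs, it was 41.9, 85.0 and 45.9% of tuft-like and 47.8, 52.9 and 53.0% of goblet-like cells. Without the doublets called by Scrublet, the tuft-like class had 95 cells in place of 123. Enteroendocrine-like (247 ± 61.2 CPM), enterocyte-like (209 ± 98.8 CPM) and Paneth-like cells (139 ± 58.4 CPM) could not be ordered, because their ranges overlapped. ISC- and TA-like cells together held 63.6, 68.4 and 60.5% of all Gpx2 UMIs.

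**Figure D1:**
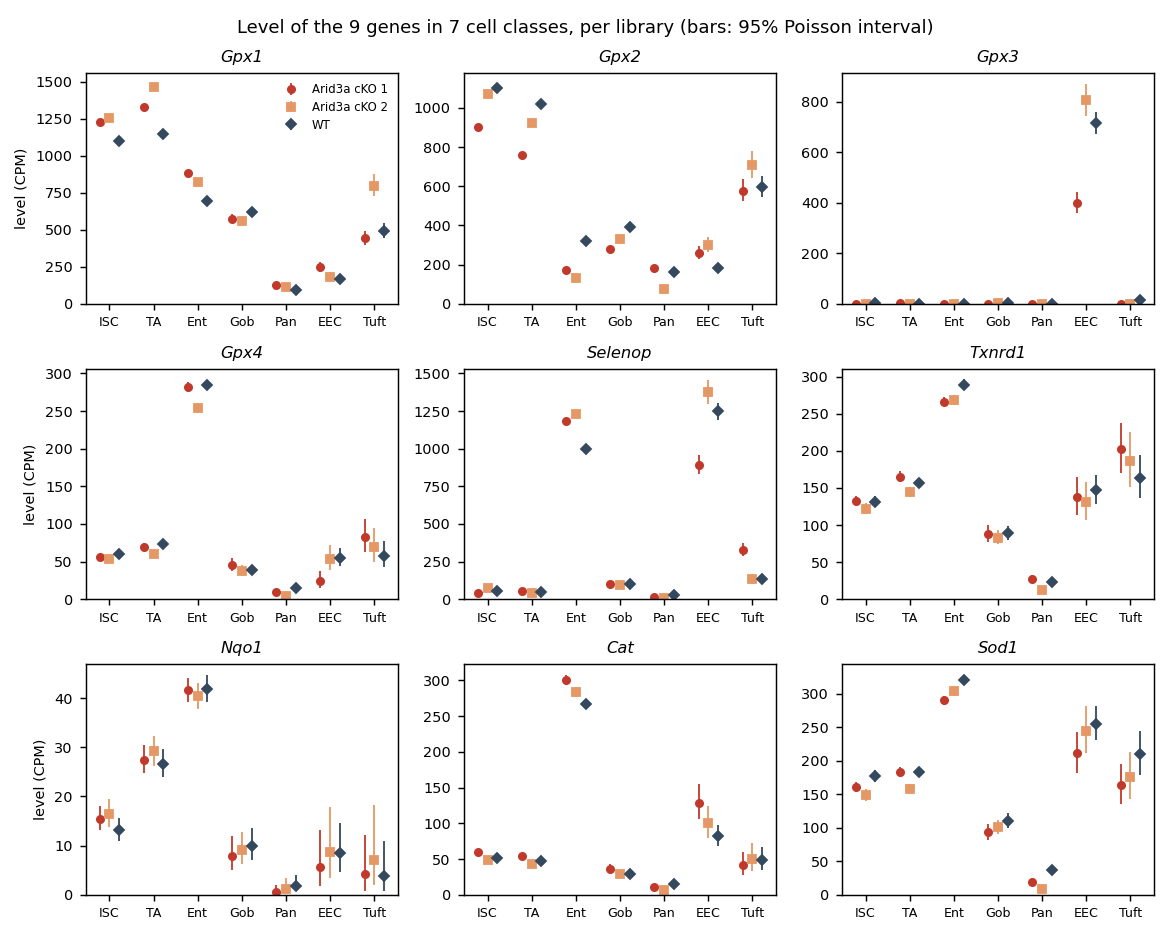
Level in CPM (vertical axes, linear and starting at 0) of the 9 genes in ISC-, TA-, enterocyte- (Ent), goblet- (Gob), Paneth- (Pan), enteroendocrine- (EEC) and tuft-like cells, 1 point per library with its 95% Poisson interval. Gpx1 and Gpx2 are highest in ISC- and TA-like cells, Gpx3 stands out in enteroendocrine-like cells alone (399, 806 and 715 CPM), and Gpx4, Txnrd1, Nqo1, Cat and Sod1 are highest in enterocyte-like cells.

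The secreted Gpx3 (chr11:54902453-54910377) was a transcript of enteroendocrine-like cells, the hormone-producing cells of the epithelium. Their level was 399, 806 and 715 CPM, and no other named class exceeded 15.1 CPM in any library. These cells made up 2.16, 2.77 and 4.55% of kept cells but held 92.9, 95.9 and 93.1% of the Gpx3 UMIs. A Gpx3 UMI was present in 63.0, 79.1 and 70.1% of enteroendocrine-like cells. With each cell thinned to 8000 UMIs, the shares were 57.5, 71.0 and 66.7%, against 0.238, 0.162 and 0.135% of enterocyte-like cells, and 6, 12 and 21 shallower enteroendocrine-like cells were left out. The transcript was unequal among the enteroendocrine-like cells. With finer clustering (resolution 0.8), Gpx3 was among the leading genes of an enteroendocrine-like cluster of 67 cells led by Afp, Chga and Tph1. It was not among those of the other, with 109 cells led by Cck, Gip and Scg2. The 5 cells with most Gpx3 held 53.4, 40.5 and 31.6% of the UMIs in the respective libraries, while the median cell had 2.5, 8 and 6 UMIs. Over all kept cells Gpx3 was at 5.37, 11.7 and 18.7 CPM, an order that the share of enteroendocrine-like cells followed and the level within them did not.

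Gpx4 (chr10:80047166-80056439) was highest in enterocyte-like cells, at 282, 254 and 285 CPM, and 3.91 times as high there as in the next class, tuft-like cells (69.9 ± 12.3 CPM). ISC-, TA-, tuft-, enteroendocrine- and goblet-like cells were between 40.8 and 69.9 CPM on average, with overlap between all neighbours. This gene carries a limit of counting. The last 500 bases of the Gpx4 transcript match a transcribed processed pseudogene at 99.8% of bases. It is listed as AC153368.1 and named Gpx4-ps2 in GENCODE M21 (chr10:45875291-45876086). The pseudogene had 3611, 3611 and 2728 UMIs, or 34.4, 47.3 and 29.8% of the Gpx4 UMIs. That percentage was almost the same in all 3 large classes of Arid3a cKO 2, from 46.9 to 47.9%, and in those of WT, from 28.2 to 29.8%, while in Arid3a cKO 1 it ran from 29.2 to 35.6%. Whether the UMIs of the pseudogene come from its own transcript or from that of Gpx4 was not tested, so the level of Gpx4 is uncertain. The sum of both was 380, 376 and 369 CPM in enterocyte-like cells, closer together than Gpx4 alone. Sod1 and Gpx2 have similar copies (Gm8566 and Gpx2-ps1), but these held at most 0.383% and 0.00668% of their UMIs.

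**Figure D2:**
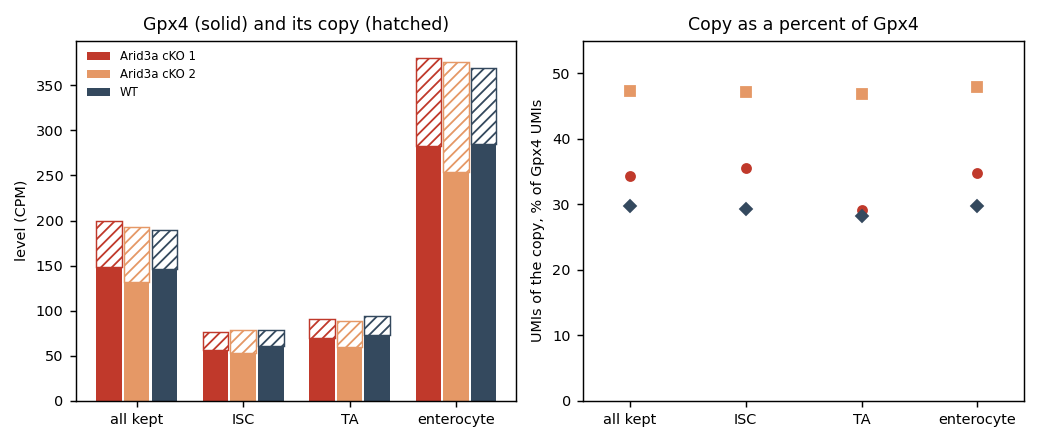
Left, stacked bars of the level in CPM of Gpx4 (solid) and of its near-identical pseudogene (hatched) in all kept cells and in ISC-, TA- and enterocyte-like cells of each library. Right, pseudogene UMIs as a percent of Gpx4 UMIs in the same cells. Arid3a cKO 2 lies between 46.9 and 47.9% and WT between 28.2 and 29.8%, and the stacked bars of the 3 libraries are of similar height within a class.

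Selenop (chr15:3268547-3280508), the selenium carrier, had 2 sites of high level. Enteroendocrine-like cells held 893, 1375 and 1249 CPM and enterocyte-like cells 1186, 1233 and 996 CPM, and the ranges of the 2 classes overlapped. Both were above tuft-like cells, over which the enterocyte-like mean of 1138 ± 126 CPM was 5.77-fold higher. Because enterocyte-like cells are numerous, they held 89.7, 87.0 and 82.4% of all Selenop UMIs, against 2.22, 3.67 and 7.03% in enteroendocrine-like cells. In ISC- and TA-like cells Selenop was at 49.1, 56.0 and 49.5 CPM, which is 4.14, 4.54 and 4.97% of the enterocyte-like level. The same percentage was 1.87 to 1.99% for the enterocyte gene Fabp1, 2.17 to 3.35% for the apolipoprotein gene Apoa4, 2.10 to 3.19% for Apoa1 and 6.04 to 6.82% for Alpi, the intestinal alkaline phosphatase. Selenop therefore lay above 3 of these 4 enterocyte genes and below Alpi, and whether its counts in crypt cells are expression there or free RNA was not tested.

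Among the named classes, the remaining 4 enzymes were all highest in enterocyte-like cells, in every library. Txnrd1 (chr10:82833951-82897712) had 267, 269 and 289 CPM there, and tuft-like cells came next with 184 ± 19.5 CPM. Nqo1 (chr8:107388225-107403206) was the sparsest, at 41.6, 40.4 and 41.9 CPM in enterocyte-like cells, 27.8 ± 1.29 CPM in TA-like cells and 15.1 ± 1.72 CPM in ISC-like cells, 3 classes whose ranges did not overlap. The unnamed cluster led by Ccl20 held about as much Nqo1, between 41.2 and 44.3 CPM, and was above enterocyte-like cells in Arid3a cKO 2 and WT. Cat (chr2:103453849-103485160), which breaks down hydrogen peroxide in peroxisomes, had 301, 284 and 267 CPM. The next class for Cat was the enteroendocrine-like one, with 103 ± 23.5 CPM. Sod1 (chr16:90220754-90226329), which converts superoxide to hydrogen peroxide, had 290, 303 and 320 CPM in enterocyte-like cells, 237 ± 23.2 CPM in enteroendocrine-like cells and 101 ± 8.65 CPM in goblet-like cells. In CPM, Paneth-like cells were lowest of the named classes for each of the 4, with the limit of depth given for Gpx1.

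Between ISC- and TA-like cells on the one hand and enterocyte-like cells on the other, the 9 genes therefore divided. The log2 difference of CPM plus 5, enterocyte-like minus crypt, was 4.46, 4.34 and 4.20 for Selenop, 2.31, 2.53 and 2.34 for Cat, and 2.06, 2.05 and 1.99 for Gpx4. It was 0.91 ± 0.09 for Txnrd1, 0.83 ± 0.11 for Sod1 and 0.75 ± 0.11 for Nqo1 (SD, n = 3 libraries). All 6 differences were positive in 3 of 3 libraries. For Gpx2 the difference was -2.22, -2.83 and -1.70, so that crypt cells held 4.76 times the enterocyte-like level on average. Gpx1 was at -0.53, -0.74 and -0.69, and Gpx3 was at or below 1.06 CPM in both compartments. The median of all 5405 genes measured was -0.21. Scaling by trimmed mean of M values (TMM) raised that median by 0.52, to 0.31, and left the order of the members as it was, but placed Gpx1 at 0.04, -0.17 and -0.14. Relative to the median of all genes Gpx1 was at -0.45 by total counts and at -0.40 by TMM.

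Single cells were also placed in order, on the same integrated data that gave the classes. Those of the ISC-, TA- and enterocyte-like classes were arranged by diffusion pseudotime without the 9 genes. They were cut into 5 bins of equal size, from stem cells (82.4% ISC-like cells in the first bin) to enterocytes. The first 2 bins held 0% and the last 2 bins 100% enterocyte-like cells. The order therefore repeats the contrast between the classes in finer steps and is not separate support for it. Gpx2 went from 923 to 100 CPM and from 1109 to 69.6 CPM in the cKO libraries, and from 1109 to 253 CPM in WT. Selenop was at 33.7 to 47.0 CPM in the first 2 bins of all libraries and at 1786, 1842 and 1520 CPM in the last. Selenop therefore appeared late, and its mean position was 0.83 ± 0.01 on a scale on which the first bin is 0 and the last is 1. Cat followed at 0.72 ± 0.01 and Gpx4 at 0.70 ± 0.0019, Nqo1, Sod1 and Txnrd1 lay between 0.59 and 0.60, Gpx1 was at 0.39 ± 0.01, and Gpx2 came first at 0.26 ± 0.04. For Gpx2 both cKO libraries were below WT in every bin but the first. For Gpx1 both were above WT in every bin, the first included. When the unnamed cluster led by Ccl20 was placed in the order, a choice made after the data had been seen, Gpx1 was highest in the middle bin, at 2014, 2367 and 1812 CPM.

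**Figure D3:**
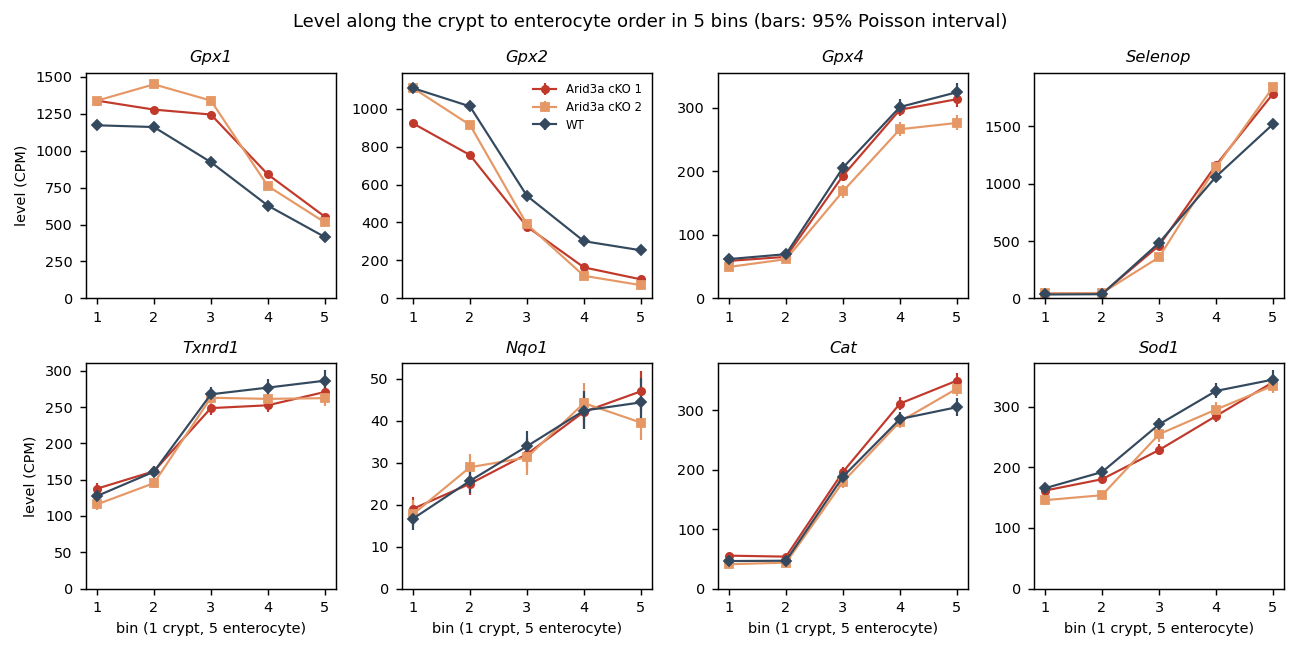
Level in CPM (vertical axes, linear and starting at 0) of 8 of the 9 genes in 5 bins of cells ordered from crypt (1) to enterocyte (5), 1 line per library with 95% Poisson intervals; Gpx3 is left out because it is near 0 in these cells. Gpx2 and Gpx1 are lower in the last bin than in the first and the other 6 genes higher, and the WT line of Gpx2 ends at 253 CPM, above the cKO lines at 100 and 69.6 CPM.

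Against WT, few of the 9 genes passed the rule for a difference in the cKO libraries. A gene was called when its mean over the libraries reached 20 CPM and each cKO library differed from WT by a log2 ratio of 0.5 or more (computed on CPM plus 5), both in 1 direction. Over all kept cells 0 of the 8 members with enough counts were called, beside 57 of 5336 genes (1.07%). In ISC- and TA-like cells it was again 0 of 8, beside 49 of 5601 genes (0.875%). In enterocyte-like cells 1 of 8, Gpx2, was called, as lower in both cKO libraries, beside 76 of 4718 genes (1.61%) in either direction and 44 (0.933%) in that one. Since the members were picked with such ratios known, nothing is read from these shares. The median of the mean log2 ratios of the 8 members was 6.33e-05 over all kept cells, 0.0048 in ISC- and TA-like cells and -0.06 in enterocyte-like cells, where the medians of all genes measured at 20 CPM or more were 0.02, 0.01 and 0.01. Gpx3 was under 20 CPM in all 3 comparisons and was not assessed. On simulated counts of enterocyte-like cells the rule found 39.5% of 1.5-fold and 99.5% of 2-fold changes. On those of ISC- and TA-like cells it found 35% and 95%, so a gene that was not called may still differ by 1.5-fold. The simulation took its spread from the cKO libraries alone and used it for WT too. Any larger spread between animals or preparations is not in these rates.

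**Figure D4:**
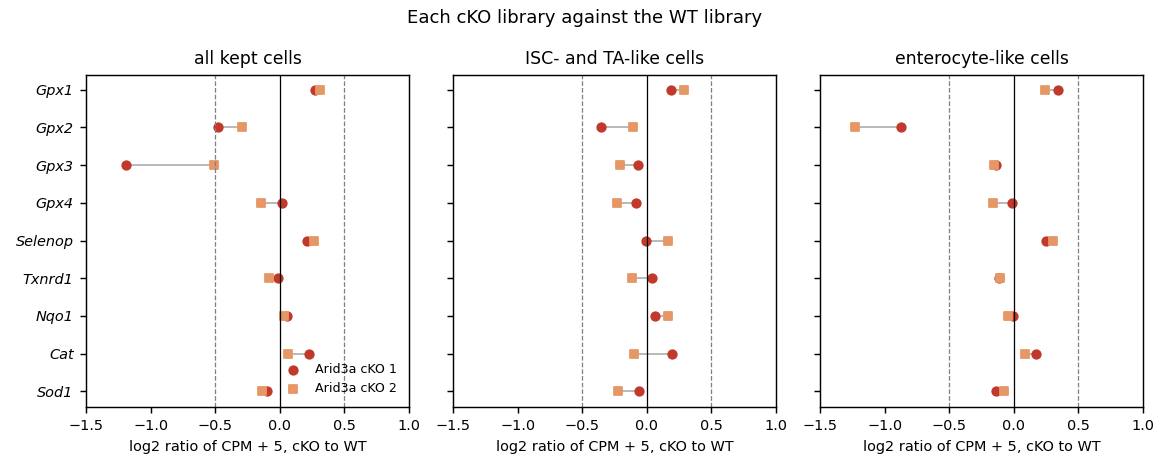
Log2 ratio of CPM plus 5 (horizontal axes) of Arid3a cKO 1 and of Arid3a cKO 2 to WT for the 9 genes in all kept cells, ISC- and TA-like cells and enterocyte-like cells, with dashed lines at 0.5 in either direction. In enterocyte-like cells Gpx2 lies at -0.88 and -1.23, and the other 8 genes lie within the dashed lines; Gpx3, at -1.19 and -0.51 over all kept cells, had too few counts to be assessed.

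Gpx2 in enterocyte-like cells had 4655 UMIs in Arid3a cKO 1, or 173 CPM (95% Poisson interval 168 to 178), 2856 UMIs in Arid3a cKO 2, or 134 CPM (129 to 139), and 7207 UMIs in WT, or 321 CPM (313 to 328). The intervals cover counting error only and do not overlap between the genotypes. WT was 1.86- and 2.40-fold above the cKO libraries, at log2 ratios of -0.88 and -1.23. In ISC- and TA-like cells the Gpx2 difference was smaller, with 822, 981 and 1055 CPM and log2 ratios of -0.36 and -0.10. The median mitochondrial share of enterocyte-like cells was 5.70, 5.41 and 6.57%, and among those with at most 5%, a limit added after the data had been seen, the log2 ratios were -1.03 and -1.44. The rule already asks each cKO library to pass, so leaving either out could not undo the call of Gpx2. Adding the unnamed cluster led by Ccl20 gave a mean log2 ratio of -0.73 in place of -1.05.

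The enterocyte-like class consists of 5 clusters, and the Gpx2 difference was present in 4 of them. In the cluster led by Dnase1, Cubn and Slc5a12 (948 cells) Gpx2 was at 122, 87.9 and 272 CPM. In the one led by Ms4a18, 2010003K11Rik and Il18 (741 cells) it was at 279, 255 and 480 CPM, and in the one led by S100g, Akp3 and Gm2061 (383 cells) at 78.6, 55.8 and 174 CPM. Both cKO libraries were below WT in each. The largest ratio was in the small cluster led by the interferon-response genes Ifit3, Ifit1bl1 and Ifit1 (58 cells), with 99.2, 38.2 and 394 CPM. In the cluster led by Gm42418 and Mir6236 (152 cells of low UMI count) the levels were 55.6, 69.9 and 70.2 CPM, and their intervals overlapped. The class of this cluster is the least sure. It had 0 enterocyte markers among its 50 leading genes, and 5 of the 19 listed were at least 1.5-fold above the other cells. Its median mitochondrial share was 11.5, 8.73 and 12.2%. The unnamed cluster led by Ccl20 had 444, 543 and 705 CPM, again with both cKO libraries below WT.

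Markers of T cells, which the sort should remove, differed between the libraries of the enterocyte-like class, with Arid3a cKO 2 nearer to WT than to Arid3a cKO 1. All 6 listed markers were detected in each library, and their summed level was 3.38, 28.2 and 44.2 CPM. Most of these UMIs (81, 593 and 983) were in 1, 2 and 7 cells of the cluster led by Gm42418. Enterocyte-like cells with a T cell marker UMI numbered 10, 11 and 16 and held 72, 49 and 107 Gpx2 UMIs. Those without such a UMI held Gpx2 at 172, 134 and 321 CPM. Whether T cell RNA bears on Gpx2 was not tested. The summed level of macrophage markers was 0.178 to 0.334 CPM in this class, with C1qa, C1qb and Csf1r at 0 in every library.

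**Figure D5:**
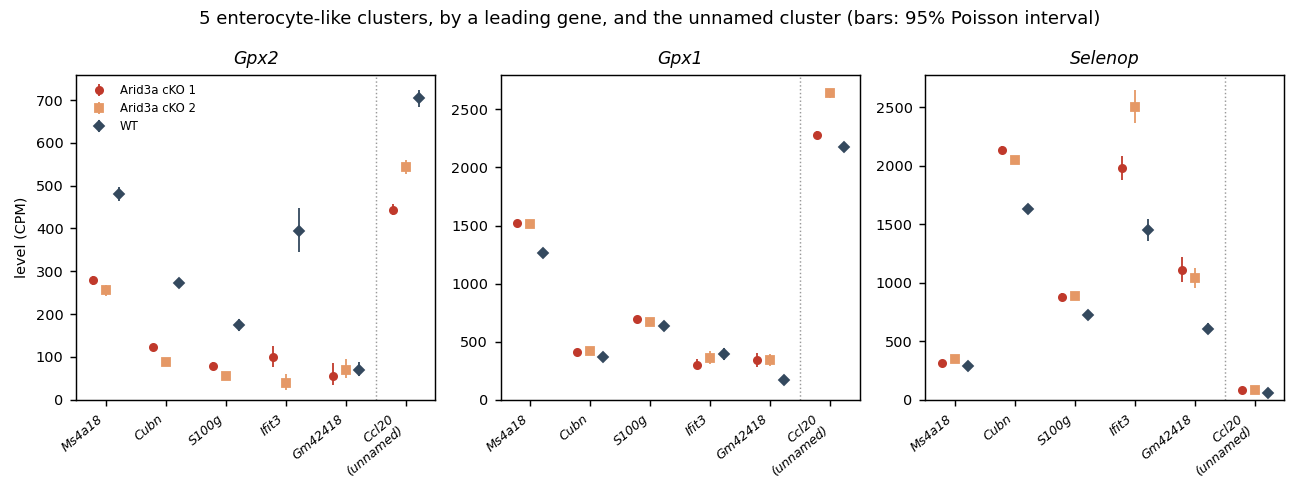
Level in CPM (vertical axes, linear and starting at 0) of Gpx2, Gpx1 and Selenop in the 5 enterocyte-like clusters, each named by a leading gene, and, right of the dotted line, in the unnamed cluster led by Ccl20; 1 point per library with its 95% Poisson interval. For Gpx2 WT is above both cKO libraries in every cluster but the one led by Gm42418, where the intervals overlap (70.2 CPM beside 55.6 and 69.9 CPM).

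Gpx1 and Selenop were higher in both cKO libraries, by less than the threshold in the class as a whole. In enterocyte-like cells Gpx1 was at 884, 823 and 696 CPM (log2 ratios of 0.34 and 0.24) and Selenop at 1186, 1233 and 996 CPM (0.25 and 0.31). Within this class the 2 genes were arranged in opposite ways. The cluster led by Cubn held 2138, 2050 and 1628 CPM of Selenop and 405, 419 and 368 CPM of Gpx1, whereas the cluster led by Ms4a18 held 316, 346 and 289 CPM of Selenop and 1522, 1512 and 1263 CPM of Gpx1. In both clusters the cKO libraries were above WT for both genes. Selenop was above WT in both cKO libraries in all 5 enterocyte-like clusters, and Gpx1 in 4 of them, the exception being the cluster led by Ifit3 (302, 359 and 394 CPM). In the cluster led by Gm42418 both passed the threshold, Gpx1 at log2 ratios of 0.95 and 0.95 and Selenop at 0.86 and 0.77, as did Cat at 0.60 and 0.69. There 21.7% of all genes assessed were called and 66.7% were above WT in both cKO libraries, with a median mean log2 ratio of 0.35, so little can be read from these 3. In ISC- and TA-like cells Gpx1 was at 1283, 1382 and 1128 CPM, at log2 ratios of 0.19 and 0.29, while Selenop had 49.1, 56.0 and 49.5 CPM.

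The other 5 measured members lay close to WT in enterocyte-like cells. Cat was slightly higher in both cKO libraries (log2 ratios of 0.17 and 0.09), and Txnrd1 (-0.12 and -0.10), Sod1 (-0.14 and -0.08), Nqo1 (-0.01 and -0.05) and Gpx4 (-0.01 and -0.16) were slightly lower. For Gpx4 the sum with its pseudogene gave 0.04 and 0.02 instead, so its sign depends on whether the pseudogene UMIs are counted with it. None of these ratios reached 0.2 in size.

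Gpx2 in enteroendocrine-like cells was the other way round, at 258, 301 and 181 CPM, or log2 ratios of 0.50 and 0.72, and was called higher, beside 6.12% of all genes assessed in this class. The class is small, with 46, 43 and 87 cells and 229, 244 and 276 Gpx2 UMIs. The 5 cells with most Gpx2 held 57.6, 67.2 and 42.4% of these UMIs, and the median cell had 2, 2 and 1. Catalase in these cells was at 129, 100 and 81.8 CPM and Selenop at 893, 1375 and 1249 CPM, so that Cat was above WT in both cKO libraries and Selenop on either side. In goblet-like cells Gpx2 was at 277, 331 and 393 CPM, and in tuft-like cells at 578, 707 and 597 CPM. In Paneth-like cells Sod1 was called lower, at 19.5, 8.65 and 36.5 CPM or log2 ratios of -0.76 and -1.60, where 5.1% of all genes assessed were called. These levels rest on 70, 22 and 119 UMIs from 34, 17 and 29 cells.

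The wider network of these enzymes was described with 73 genes in 9 lists, all of which were found. Of these, 42 had at least 20 CPM over all kept cells, 39 in enterocyte-like cells and 44 in ISC- and TA-like cells, and 0 were called higher and 0 lower in each. In enterocyte-like cells all 11 thioredoxins, peroxiredoxins and related genes could be assessed, 7 of them above and 2 below WT in both cKO libraries, with a median mean log2 ratio of 0.10. Over all genes assessed in these cells, 41.4% were above and 36.2% below in both. The 10 assessed of 18 other selenoproteins, which include the endoplasmic reticulum proteins Selenos, Selenok and Selenof, had a median of 0.04, with 5 above and 3 below. The 6 assessed regulators and targets of NRF2, with Nfe2l2, which encodes NRF2, among them, had a median of -0.11, with 4 below and 1 above. Glutathione synthesis and reduction was at -0.08 over 4 genes and the oxidant-producing enzymes at -0.07 over 3. The remaining glutathione peroxidases Gpx5, Gpx6, Gpx7 and Gpx8 were too low to be assessed in any of the comparisons.

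Across the 7 classes and 3 libraries, 21 points in all that share libraries and cells, the genes whose log2 level followed each member most closely were also listed, among 5543 genes. Gpx2 was nearest to the ribosomal protein genes Rpl35 (Pearson r = 0.97) and Rps28 and to Rpl39-ps, by its symbol a pseudogene. Gpx3 was nearest to enteroendocrine genes, Snap25 (0.99), Tph1, which makes serotonin, and Stxbp5l. Gpx1 was nearest to the inflammasome adaptor Pycard (0.98). Gpx4 was nearest to the carbonyl reductase Cbr1 (0.98), Cat to Epb41l3 (0.98), Txnrd1 to the peroxisome assembly gene Pex19 (0.99), Sod1 to Net1 (0.98), Selenop to Entpd5 (0.97) and Nqo1 to Cds1 (0.96). Within the members, r ran from -0.44 for Gpx1 and Gpx3 to 0.96 for Sod1 and Txnrd1. Gpx4 and Txnrd1 had 0.91, Gpx1 and Gpx2 0.74, and Gpx2 and Selenop -0.23.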

How the data were processed

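The authors counted reads with Cell Ranger, per the file headers version 5.0.0, and deposited raw UMI counts per gene and barcode, 1 matrix per library. The mouse build used for these counts is not given in the sources used here. The submitters' processing notes list human builds (GRCh38 and hg19), although the gene identifiers are of mouse, and the study names GRCm38 for its other assays. Coordinates and transcripts are from GENCODE M21 (GRCm38), matched by gene identifier. The 9 members and the gene lists were chosen with earlier results of these data known. Cells with at least 1000 genes and at most 15% mt- UMIs were kept, with doublets (1.41 to 2.41% by Scrublet in scanpy 1.11.5) left in. Libraries were integrated by canonical correlation in Seurat 5.3.0 (R 4.3.3; 3000 features, 2000 in the principal component analysis, 30 components, resolution 0.3) without the 9 members, the 73 pathway genes and Arid3a. Clusters were named from marker lists. Total depth was 94614297 to 129243053 UMIs per library. UMIs were summed per library and class and given per 1000000 UMIs (CPM), with exact 95% Poisson intervals, which cover counting error only. Ratios used a pseudocount of 5 CPM. The calling rule was tested on simulated data. Named were all members, and up to 3 called genes per pathway list, of which there were none, and the genes most alike each member. For order, cells were placed by diffusion pseudotime (30 neighbours). Near-identical copies were sought with blastn 2.17.0+ over each transcript's last 500 bases (at least 95% identity over 100 bases). Alternatives were other cell filters, doublet removal, resolution 0.8, no integration, TMM scaling (edgeR 4.0.16), a mean over cells, pseudocount 1, a minimum of 1 CPM, a log2 ratio of 1, 10 bins, and each cKO library left out. Chosen after seeing the data were the alternatives on the unnamed cluster, the cluster led by Gm42418, 5% mt- UMIs and the Gpx4 pseudogene.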

Additional observations from a re-analysis of the deposited data

Results flagged for a closer look

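Gpx2 lay on opposite sides of WT in different classes. It was higher in both cKO libraries in enteroendocrine-like cells and lower in both in TA-like, enterocyte-like and goblet-like cells. The mean log2 ratio in enteroendocrine-like cells exceeded that in TA-like cells by 0.90, that in enterocyte-like cells by 1.67 and that in goblet-like cells by 0.98. These differences were not tested, since there is 1 WT library. The enteroendocrine-like value rests on 229, 244 and 276 UMIs, most or much of which came from 5 cells in each library.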

How the results depend on the processing

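The number of members called stayed the same under all alternatives tried except a pair. With a minimum of 1 CPM, 1 member, Gpx3, was called over all kept cells, and with a log2 ratio of 1 the number called in enterocyte-like cells was 0. Gpx2 in enterocyte-like cells ranged from -1.27 (no integration) to -0.73 (with the unnamed cluster led by Ccl20) as a mean log2 ratio, and it was called under each setting but the log2 ratio of 1. With either cKO library left out, 1 member was called in enterocyte-like cells and 0 in the other comparisons. Because the rule asks each cKO library to pass, leaving 1 out could add calls but not undo that of Gpx2. Of 474 values recomputed under 17 settings, 387 moved by less than the SD between libraries or stayed within 1.5 times of the count. None changed the direction of a called value. The SD was over the cKO libraries for ratios to WT, and over all 3 libraries for the other differences and the positions. Leaving out 1 cKO library always moves a mean by less than this SD, so such means could not count as moved. The number of all genes called depended more on the rule. In enterocyte-like cells the 76 became 16 with a log2 ratio of 1, 127 with a minimum of 1 CPM, and 120 and 126 without Arid3a cKO 1 and 2. Over all kept cells the 57 became 19, 96, 101 and 100, and in ISC- and TA-like cells the 49 became 10, 75, 80 and 106. The single WT library limits every comparison between genotypes, and the small classes, with 17 to 34 Paneth-like and 27 to 50 tuft-like cells per library, also have few counts. No paired analysis was possible because WT has 1 library, so that replicate number 1 alone occurs in both genotypes.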
